A study of Mus musculus with 13 samples.

Results

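The MHC class I presentation pathway and the immunoproteasome were followed through 10 genes of whole mouse liver, taken by symbol: the class I heavy chains H2-K1 and H2-D1, their light chain B2m, the peptide transporter subunits Tap1 and Tap2, the loading chaperone Tapbp, the immunoproteasome subunits Psmb8, Psmb9 and Psmb10, and the transactivator Nlrc5. All 10 were found among the 22048 genes of the deposited count table, and all 10 passed the filter on low counts that 13831 genes passed. Polyadenylated RNA of 13 livers was sequenced. The groups were 6 control livers with their hepatic stellate cells in place (males: replicates 1, 2 and 6; females: replicates 3, 4 and 5), 4 livers labelled as depleted of these cells, of which replicate 3 alone was male, and 3 undepleted livers of the 72 h time point after partial hepatectomy, of which replicate 3 alone was female. The labels name no strain, age, agent or allele used for the depletion, time after depletion or sham operation, so what the controls received is not known here. They also do not say that each library came from its own animal, so the p-values measure the spread between these libraries. Stellate cells wrap the liver sinusoids and hold the body's vitamin A stores, and partial hepatectomy starts regeneration by removing liver lobes.

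In the class I pathway, proteasomes cut cellular proteins into peptides, the TAP1-TAP2 transporter moves them into the endoplasmic reticulum, and tapasin (Tapbp) holds the transporter next to empty class I molecules so that peptides can be loaded. The loaded complex of heavy chain and beta-2-microglobulin travels to the cell surface, where CD8 T cells and natural killer cells read it. Interferon-gamma, in part through IRF1, is the textbook inducer of the pathway: it exchanges the catalytic proteasome subunits PSMB5, PSMB6 and PSMB7 for PSMB8, PSMB9 and PSMB10 and raises NLRC5, which is recruited to class I promoters. Hepatocytes, the main cell mass of liver, are known for low class I expression at rest.

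In mm10 coordinates, the build named in the submitters' processing notes, 7 of the 10 genes lie on chromosome 17 in the MHC: Tapbp at chr17:33915899-33929288 (+), H2-K1 at chr17:33996017-34000333 (−), Psmb9 at chr17:34181988-34187764 (−), Tap1 at chr17:34187553-34197225 (+), Psmb8 at chr17:34197721-34201454 (+), Tap2 at chr17:34203527-34216321 (+) and H2-D1 at chr17:35262730-35267499 (+). The others are B2m at chr2:122147686-122153083 (+), Nlrc5 at chr8:94472763-94527272 (+) and Psmb10 at chr8:105935728-105938392 (−). These spans run from the first to the last exon base of each gene's row. The gene models of Psmb9 and Tap1 overlap at their 5′ ends on opposite strands, and the RefSeq starts of this divergent pair are 225 bases apart. H2-K1 and H2-D1 are closely related paralogs. How multi-mapped reads and strand were treated in counting is not given in the sources used here, so the split of reads between H2-K1 and H2-D1, among other class I heavy chains, and between the overlapping ends of Psmb9 and Tap1 is uncertain.

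The promoter sequence shared by the heavy chains is printed as a description, because both classical genes carry it. Its part in their levels was not tested. RefSeq promoter windows (GRCm38.p6) were at hand for 8 of the 10 genes, 9 windows in all since H2-K1 has a pair of starts, and no window was at hand for Tap2 and Nlrc5. Over the 250 bases before the start, both strands were searched for AANNGAAA (the core of an interferon regulatory factor site), the same letters preceded by GA (an interferon-stimulated response element, which overlaps the first motif), TTCNNNGAA (a gamma-activated site) and GGGGATTCCCC (the kappa-B motif of the class I enhancer A, bound by NF-kappa-B, with its letters as H2-K1 has them). The H2-K1 window at chr17:34000348-34000597, minus strand, holds the kappa-B letters from 111 to 101 and the interferon core from 90 to 83 bases before the start, both in capitals.
H2-K1: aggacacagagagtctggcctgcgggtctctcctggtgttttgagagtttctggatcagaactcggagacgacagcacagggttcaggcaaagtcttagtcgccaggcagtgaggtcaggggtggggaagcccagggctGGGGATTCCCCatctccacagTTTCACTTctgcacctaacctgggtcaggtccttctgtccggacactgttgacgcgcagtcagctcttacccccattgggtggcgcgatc

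The 29 bases from the kappa-B letters to the interferon core differ between heavy chain genes as follows, with motif matches in capitals. The genes shown are those within 5 mismatches of H2-K1 among the 12 heavy chain genes with a window.
H2-K1 (chr17:34000430-34000458, −): GGGGATTCCCCatctccacagTTTCACTT
H2-D1 (chr17:35262923-35262951, +): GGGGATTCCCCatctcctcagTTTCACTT
H2-Q6 (chr17:35424677-35424705, +): GGGGATTCCCCatctccccagTTTCACTT
H2-Q4 (chr17:35379443-35379471, +): ggggatttcccatctccccagTTTCACTT
H2-Q10 (chr17:35469913-35469941, +): gaggactccccatctccccagTTTCACTT
H2-Q7 (chr17:35439021-35439049, +): tggggattcccatctccccagTTTCACTT
Counting positions from 1 at the 5′ end of the stretch and giving the H2-K1 base first, H2-D1 carries A18T and H2-Q6 carries A18C, both between the motifs. H2-Q4 carries C8T and A18C, and H2-Q10 carries G2A, T6C and A18C, so that the exact kappa-B letters are lost in both while the interferon core is kept. H2-Q7 differs from H2-K1 at 5 positions in this alignment without gaps. Because the kappa-B letters were taken from H2-K1, its own match was given by that choice. Of the other genes with a window among the 10, H2-D1 alone held them, and of all 27025 genes with a window 0.0333% did.

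The interferon core was found in 3 of the 8 genes (H2-K1, H2-D1 and B2m), against 23.9% of all genes with a window, and the longer response element in B2m alone, against 3.46%. The B2m window, printed without its last base at chr2:122147437-122147685, plus strand, is shown with the interferon core in capitals, 137 to 130 bases before the start. It is the light chain that every classical class I molecule needs.
B2m: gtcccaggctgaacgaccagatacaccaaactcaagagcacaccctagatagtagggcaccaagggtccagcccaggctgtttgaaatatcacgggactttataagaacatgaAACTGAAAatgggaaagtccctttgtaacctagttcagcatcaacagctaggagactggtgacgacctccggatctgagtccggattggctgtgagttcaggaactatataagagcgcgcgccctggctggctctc
The gamma-activated letters were found in the Psmb8 window as TTCCCAGAA, 97 to 89 bases before a start, against 8.13% of all genes with a window. A match describes letters only, and a window without one says nothing of the factor.

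Total counts were between 35360991 and 51008737 per library, so that 3 counts correspond to 0.0524 to 0.09 CPM (counts relative to library size, with TMM scaling), a limit of counting error only since reads carry no molecular identifiers. Stellate cell markers were lower in the depleted group in 7 of 7 genes, and their summed level was 1.34, 1.28 and 2.83 CPM in depleted replicates 2, 3 and 1 and 25.3 CPM in replicate 4, against 108 to 362 CPM in controls. Control replicate 6 and hepatectomy replicate 2 stood apart by summed pan-leukocyte markers of 12.3 and 18.5 CPM, against 42.2 to 61.4 CPM in the other controls and 43.2 and 55.7 CPM in the other hepatectomised livers. The same pair was lowest of its groups in summed Kupffer cell markers (50.5 and 56.1 CPM, against 232.3 to 631 CPM in the other undepleted livers), sinusoidal endothelial markers (81.5 and 76.5 CPM, against 184.1 to 310.8 CPM) and stellate cell markers (108 and 121 CPM, against 201.9 to 361.5 CPM). In heavy chain levels these livers were high: control replicate 6 was the highest control for H2-K1, H2-D1 and B2m, and hepatectomy replicate 2 the highest hepatectomised liver for H2-K1 and H2-D1. Without both, 10, 0 and 10 of the 10 genes were called in depleted against control, hepatectomised against control and depleted against hepatectomised livers, as with them. Hepatocyte markers were present in every library at sums of 63160 CPM or more.

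Within control livers, levels compared per kilobase of exon placed B2m first at 2150 ± 225 CPM per kilobase (SD, n = 6), followed by H2-D1 at 167 ± 32.2 and H2-K1 at 133 ± 28.2. The 2 heavy chains overlapped in range (119 to 213 for H2-D1 and 95.5 to 180.3 for H2-K1). Tapbp at 29.5 ± 4.51 and Psmb10 at 27.2 ± 4.80 CPM per kilobase also overlapped, followed without overlap by Psmb8 at 12.9 ± 2.17 and Tap2 at 8.15 ± 1.23. Psmb9 at 4.32 ± 0.960, Tap1 at 3.23 ± 0.673 and Nlrc5 at 2.66 ± 0.797 CPM per kilobase were lowest, with overlapping ranges. The transporter subunits, which work as a pair, thus differed in the controls, and Tap1 per kilobase was 0.352 to 0.476 of Tap2 in the 6 libraries. Levels and ratios between genes rest on the exon lengths given with the counts. How far these match the transcripts made in liver was not checked.

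In livers depleted of stellate cells, all 10 genes were higher than in controls, by 1.86-fold for B2m to 9.87-fold for Tap1. The counts of the 10 genes passed the edgeR quasi-likelihood test at a Benjamini-Hochberg adjusted p under 0.05 over all genes, in a model with group and sex over the 13 libraries. Over all 13831 genes tested, 18.9% were called higher and 33.9% were called in either direction. The median log2 fold change of the 10 genes was 2.01, against −0.03 over all genes tested, and 9 of 10 rose at least 2-fold. The depleted and control ranges did not overlap for any of the 10, a state reached with higher values by 16.5% of genes tested. All 10 stayed called in each of 25 alternative analyses, the one without depleted replicate 4 among them.

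The heavy chains present peptide directly. H2-K1 measured 1079, 1039, 1522 and 1747 CPM in depleted replicates 1 to 4, against a control minimum of 249.0, median of 335.9 and maximum of 470.2 CPM. All 4 depleted livers lay above every control, with replicates 3 and 4 highest, and the log2 fold change was 2.0 ± 0.21 (SE, adjusted p = 2.8e-05, edgeR), a 3.99-fold rise. H2-D1 measured 1549, 1500, 2354 and 2103 CPM, against 305.9, 446.1 and 549.4 CPM in controls (minimum, median and maximum). The same pair of depleted livers was highest, and the log2 fold change was 2.16 ± 0.19 (adjusted p = 7.04e-06, edgeR). Because reads may be shared between these paralogs, their counts were also summed as 1 gene, which gave a log2 fold change of 2.09.

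B2m, the invariant light chain, measured 3271, 3221, 3685 and 3608 CPM in the depleted livers, against 1566, 1870 and 2142 CPM in controls (minimum, median and maximum). Its ranges were separate too, but its log2 fold change of 0.89 ± 0.14 (adjusted p = 0.000351, edgeR) was the smallest of the 10. H2-D1 counts per kilobase relative to B2m were 0.155 to 0.213 in depleted livers and 0.0651 to 0.0855 in controls. The ratio of H2-K1 to H2-D1 covered 0.64 to 0.82 in depleted livers and 0.74 to 0.85 in controls, which overlap.

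Tap1, the transporter subunit, measured 188.0, 124.4, 192.5 and 198.1 CPM in depleted replicates 1 to 4, against 12.75, 17.51 and 24.2 CPM in controls (minimum, median and maximum). Replicate 2 was the low one, still above every control, and the log2 fold change of 3.30 ± 0.20 (adjusted p = 6.21e-07, edgeR) was the largest of the 10. Tap2, its partner, measured 123.7, 94.3, 138.0 and 159.3 CPM, against 22.18, 31.53 and 35.13 CPM in controls. Here too replicate 2 was lowest and the groups were separate, with a log2 fold change of 2.03 ± 0.18 (adjusted p = 7.06e-06, edgeR). Per kilobase, Tap1 reached 0.859 to 1.05 of Tap2 in depleted livers, above the control range of 0.352 to 0.476.

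Tapbp, which encodes tapasin, measured 321.9, 237.6, 327.6 and 348.2 CPM in the depleted livers, against 81.3, 95.91 and 117.6 CPM in controls. The lowest depleted liver was again replicate 2, above every control, and the log2 fold change was 1.63 ± 0.14 (adjusted p = 7.06e-06, edgeR). Nlrc5, the class I transactivator, measured 81.15, 59.76, 60.03 and 61.1 CPM, against 11.51, 21.17 and 28.97 CPM in controls. Depleted replicate 1 was high and the other 3 were close to each other, all above the controls, with a log2 fold change of 1.64 ± 0.23 (adjusted p = 0.000186, edgeR).

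Among the immunoproteasome subunits, Psmb8 (LMP7) measured 197.7, 158.2, 226.7 and 270.9 CPM in depleted replicates 1 to 4, against 30.07, 32.89 and 46.4 CPM in controls. The groups were separate, with replicate 4 highest, and the log2 fold change was 2.56 ± 0.17 (adjusted p = 1.15e-06, edgeR). Psmb9 (LMP2), the neighbour of Tap1, measured 122.1, 99.32, 123.4 and 174.7 CPM, against 9.966, 16.45 and 19.33 CPM in controls. Its log2 fold change of 3.01 ± 0.20 (adjusted p = 1.22e-06, edgeR) was the second largest of the 10, with no overlap between groups. Psmb10 (MECL-1), encoded outside the MHC, measured 113.5, 91.72, 99.84 and 158.8 CPM, against 25.53, 35.3 and 41.35 CPM in controls. It rose by 1.69 ± 0.18 on the log2 scale (adjusted p = 2.74e-05, edgeR), with all 4 depleted livers above the controls.

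**Figure D1:**
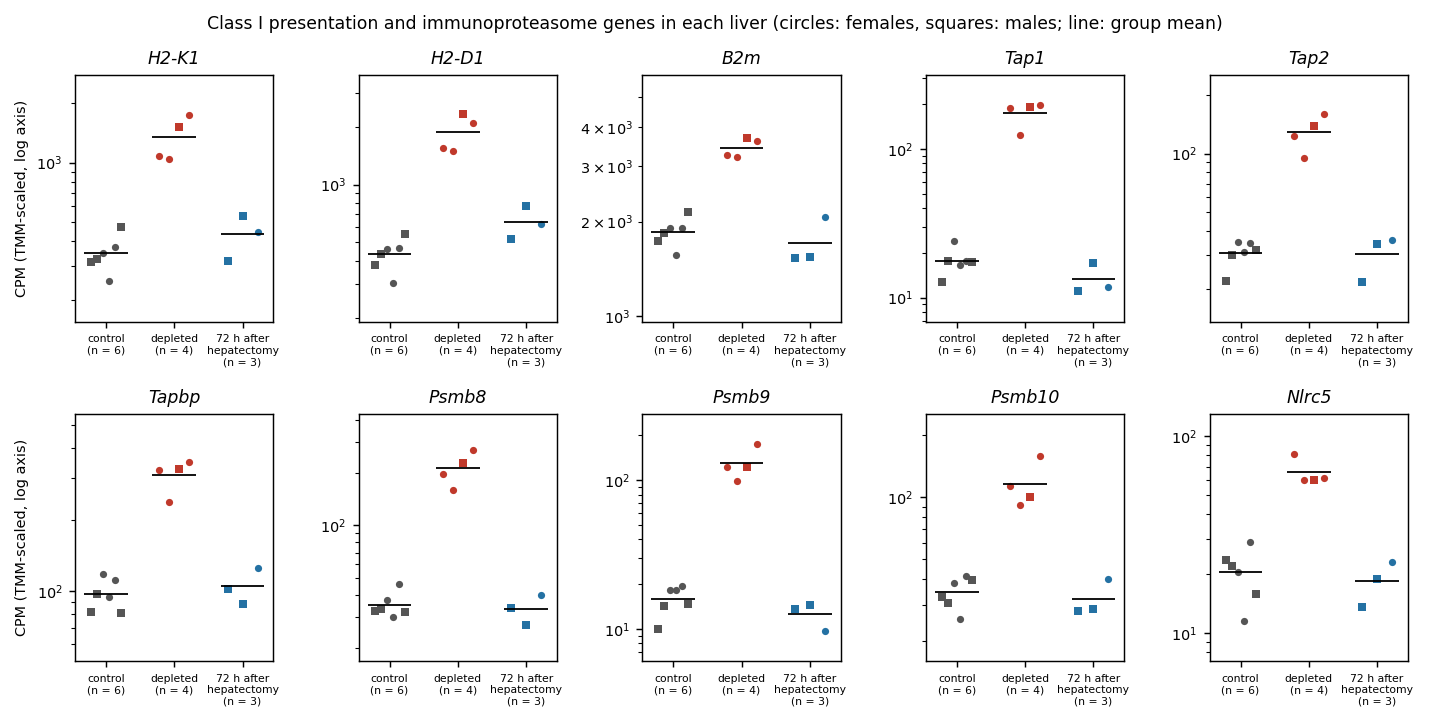
Each panel shows 1 gene, with CPM (TMM-scaled) on a log axis whose range differs between panels and 1 point per liver (circles for females, squares for males, lines for group means). The depleted livers lie above all controls and all hepatectomised livers in the 10 panels, while the latter groups overlap.

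The depleted livers kept an order among themselves. Replicate 2 was the lowest of the 4 in all 10 genes, and replicate 4 was the highest in 7 of 10. Summed pan-leukocyte markers were also lowest in replicate 2, at 275 CPM, and highest in replicate 4, at 535 CPM. The same pattern was seen in the sums of T cell (31.3 and 80.0 CPM), natural killer cell (10.3 and 21.9 CPM) and Kupffer cell markers (493.7 and 1191 CPM). Other markers did not follow it in full: Ptprc and summed dendritic cell markers were highest in replicate 3, and summed B cell markers were lowest in replicate 1. Summed monocyte and neutrophil markers were lowest in replicate 4, at 187.5 CPM. Summed hepatocyte markers ran the opposite way, highest in replicate 2, at 156800 CPM, and lowest in replicate 4, at 63160 CPM. That sum is mostly Alb, at 51060 to 143500 CPM in the depleted livers, against 6463 to 9678 CPM for Apoa1 and 3134 to 4400 CPM for Ttr. Its order is therefore that of 1 gene and not of the list. Depleted replicate 4 was also the liver with the most stellate cell marker RNA. The part of these cells in the order was not tested.

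The constitutive catalytic subunits that the immunoproteasome subunits replace did not pass the test in depleted livers, with 0 of 3 called. With 33.9% of all genes tested called in either direction, a count of 0 of 3 is no result about the list. Psmb5 measured 17.42, 28.11, 42.23 and 34.33 CPM in depleted replicates 1 to 4 and 24.04 to 44.54 CPM in controls, with a log2 fold change of −0.06 ± 0.18 (adjusted p = 0.822, edgeR). Psmb6 had a log2 fold change of −0.25 ± 0.18 (adjusted p = 0.323, edgeR), with 71.03 to 120.6 CPM in depleted and 91.56 to 164.9 CPM in control livers. Psmb7 had a log2 fold change of −0.31 ± 0.13 (adjusted p = 0.0812, edgeR), with 78.57 to 109.4 CPM against 97.48 to 156.4 CPM. These ranges overlapped, but without depleted replicate 4 both Psmb6 (−0.44, adjusted p = 0.0393, edgeR) and Psmb7 (−0.43, adjusted p = 0.0103, edgeR) passed as lower.

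Each immunoproteasome subunit was then set against the constitutive subunit whose place it takes, as a ratio of counts per kilobase within a library, which does not depend on library scaling. Psmb8 over Psmb5 was 3.61, 1.79, 1.71 and 2.51 in depleted replicates 1 to 4 and 0.230 to 0.530 in controls. Psmb9 over Psmb6 was 0.879, 0.678, 0.646 and 0.741, against 0.0392 to 0.108. For Psmb10 over Psmb7 the values were 1.38, 1.10, 0.935 and 1.39, against 0.220 to 0.405. Every depleted liver was above every control in all 3 ratios. Psmb8 exceeded Psmb5 per kilobase in the 4 depleted livers and was below it in the 6 controls. Which subunit is ahead rests on the exon lengths used, 2736 bases for Psmb8 and 871 bases for Psmb5. Without them the control means were nearly equal, at 35.31 CPM for Psmb8 and 35.23 CPM for Psmb5.

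The mean log2 ratio was higher in depleted livers by 2.83 for Psmb8 over Psmb5 (7.10-fold), 3.38 for Psmb9 over Psmb6 (10.4-fold) and 2.13 for Psmb10 over Psmb7 (4.37-fold). For each of them an exact two-sided permutation test gave p = 0.00952, the smallest that 4 against 6 libraries allow, and 0.019 after adjustment over 6 ratio tests. Sex was not balanced between these groups. Among females alone, 3 against 3, the differences were 2.60, 2.99 and 2.06, where the exact test cannot go below 0.1.

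**Figure D2:**
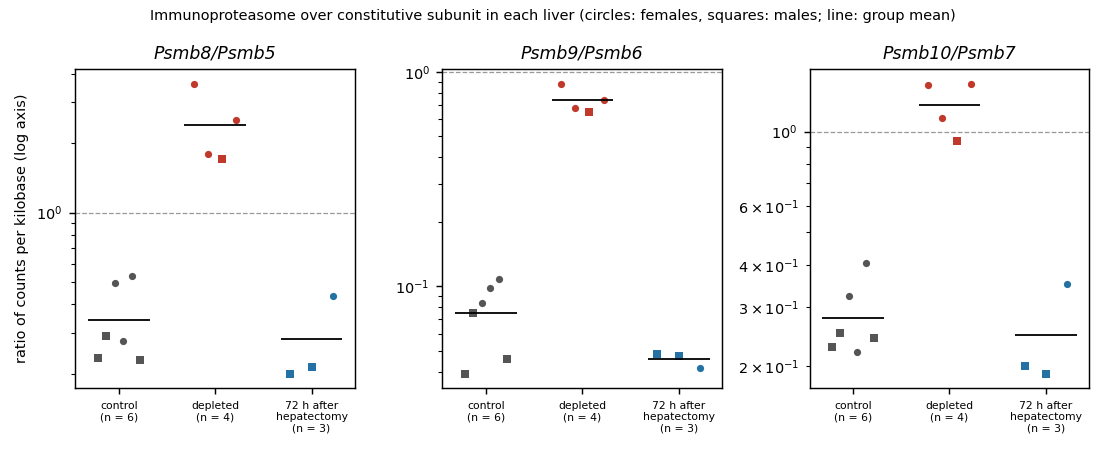
Ratios of counts per kilobase of each immunoproteasome subunit to its constitutive counterpart, on a log axis, with 1 point per liver (circles for females, squares for males) and lines for group means. A dashed line marks a ratio of 1, and where the points fall around it depends on the exon lengths used. The 4 depleted livers lie above all controls in the 3 panels, at 1.71 to 3.61 for Psmb8 over Psmb5.

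The rest of the proteasome was followed in lists of its parts. Of 11 other subunits of the 20S core, 0 were called in depleted livers by edgeR, at a median log2 fold change of 0.01, and of 5 assembly chaperones 0 were called. The share over all genes tested was 33.9% in either direction and 18.9% higher. Among 17 subunits of the 19S regulatory particle, which unfolds ubiquitinated substrates, 1 was called, Psmd11 with a log2 fold change of −0.35 ± 0.11 (adjusted p = 0.0275, edgeR), and this call was lost in 8 of 25 alternatives. Of the 3 PA28 genes, whose alpha and beta products form a cap that opens the 20S core, 2 rose. Psme1 (PA28 alpha) measured 177.0, 154.9, 226.9 and 282.6 CPM in depleted livers and 83.77 to 126.6 CPM in controls, a log2 fold change of 1.17 ± 0.17 (adjusted p = 0.000235, edgeR). Psme2 (PA28 beta) measured 85.92, 76.25, 99.49 and 144.2 CPM, against 47.62 to 73.77 CPM, a log2 fold change of 0.90 ± 0.18 (adjusted p = 0.00213, edgeR). For both, all depleted livers were above all controls. The third, Psme3, which encodes the nuclear PA28 gamma, had a log2 fold change of 0.01 (adjusted p = 0.95, edgeR).

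Of 9 genes for peptide trimming and loading, 2 were called higher in depleted livers, a share near the 18.9% of all genes tested and so no result about this list, and a count of 4 without control replicate 4 and of 1 without depleted replicate 3. Tapbpl, encoding the peptide editor TAPBPR, measured 56.24 to 70.05 CPM against 19.02 to 29.08 CPM, a log2 fold change of 1.42 ± 0.15 (adjusted p = 2.38e-05, edgeR). Erap1, the aminopeptidase that trims peptides in the endoplasmic reticulum, had a log2 fold change of 0.70 ± 0.20 (adjusted p = 0.0154, edgeR). Its ranges overlapped, with 116.0 CPM in depleted replicate 4 against 86.1 to 147.0 CPM in controls, and it no longer passed without depleted replicate 3 (adjusted p = 0.0677, edgeR). The general chaperones Calr, Canx, Pdia3 and Hspa5 were among the 7 not called.

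Among 17 other class I heavy chain and class I-like genes, 12 were called higher and 0 lower in depleted livers, against 18.9% of all genes tested called higher. Their median log2 fold change was 1.69, and 11 or 12 were higher in each of the 25 alternatives. H2-M2, among the 12, passed the filter only through the depleted livers, and without it 11 of 16 were higher. The 4 with the smallest p were H2-Q4 with 160.0 to 213.0 CPM against 26.44 to 52.06 CPM in controls (log2 fold change 2.29 ± 0.19, adjusted p = 6.35e-06, edgeR), H2-Q2 (2.15 ± 0.23, adjusted p = 2.75e-05), H2-M3 (2.20 ± 0.24, adjusted p = 3.33e-05), which presents N-formylated peptides, and H2-Q6 (2.25 ± 0.28, adjusted p = 9.11e-05). The 5 not called were H2-Q10, Cd1d1, Mr1, Hfe and Fcgrt. The last 4 of these encode molecules that present lipids (Cd1d1) or vitamin metabolites (Mr1), regulate iron (Hfe) or carry IgG and albumin (Fcgrt). Reads may be shared among the H2-Q and H2-T genes.

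H2-Q10 and H2-T23 were singled out after their values were seen. H2-Q10, a heavy chain secreted by the liver, measured 640.6, 693.9, 709.8 and 1046 CPM in depleted replicates 1 to 4, against 816.2 to 1168 CPM in controls, so that 3 of 4 depleted livers were below all controls. Its log2 fold change of −0.34 ± 0.18 did not pass (adjusted p = 0.158, edgeR), but it passed without depleted replicate 4 (−0.53, adjusted p = 0.0142, edgeR). H2-T23, which encodes the Qa-1 ligand of CD94-NKG2 receptors, measured 605.7, 487.9, 697.6 and 737.2 CPM, against 106.7 to 280.8 CPM in controls (log2 fold change 1.56 ± 0.28, adjusted p = 0.000867, edgeR).

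**Figure D3:**
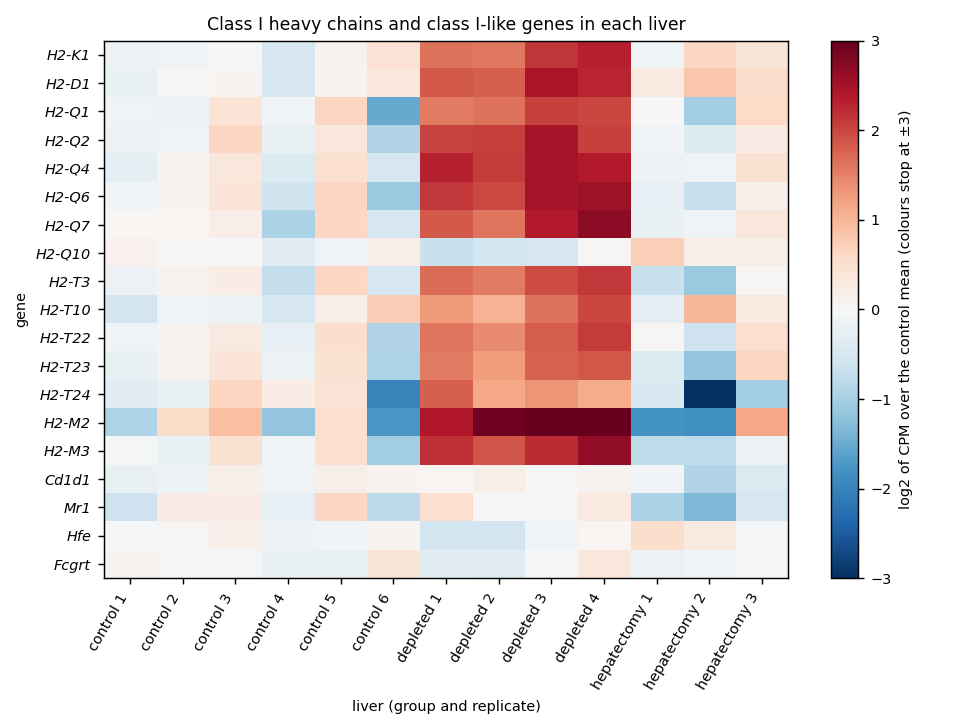
Rows are the heavy chain and class I-like genes, columns the 13 livers, and colour the log2 of CPM over the control mean, with colours stopping at ±3. Red fills the 4 depleted columns from H2-K1 to H2-M3 except in the H2-Q10 row, where depleted replicates 1 to 3 lie at 640.6 to 709.8 CPM and below the controls.

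Of 17 genes of the interferon-gamma receptor pathway and class I regulators, 11 were called higher and 0 lower in depleted livers, against 18.9% of all genes tested called higher. Over the alternatives 7 to 12 were higher, with 7 among females alone. Ifng and Socs1, among the 11, would not have passed the filter on the controls alone, and without them 9 of 15 were higher. Irf1, an interferon-induced activator of class I genes, measured 174.1, 130.9, 201.5 and 207.1 CPM, against 41.05 to 49.15 CPM in controls (log2 fold change 2.02 ± 0.13, adjusted p = 1.15e-06, edgeR). The others with the smallest p were Ciita, the class II transactivator related to Nlrc5 (4.87 ± 0.39, adjusted p = 4.89e-06, edgeR), and Irf8, a factor of myeloid cells (3.52 ± 0.33, adjusted p = 1.34e-05, edgeR). In all 3 genes the depleted livers were above every control. Ifng itself was counted 29, 15, 134 and 145 times in depleted replicates 1 to 4 and 0, 0, 1, 1, 3 and 0 times in control replicates 1 to 6, too few in controls for a fold change. It passed the filter on low counts only through the depleted livers, where it is high, so its place among the 11 is no support. The RFX subunits Rfx5, Rfxap and Rfxank, which NLRC5 needs at class I promoters, were not called.

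Markers of blood-derived cells moved with the 10 genes. Of 10 listed receptors that read class I, 7 passed the filter and 7 were higher in depleted livers. Of these, 3 would have passed on the controls alone, while Cd8a, Cd8b1, Klra3 and Klra8 passed through the depleted livers, where they are high and had to differ, so the count is no support. Cd8a, a chain of the T cell co-receptor for class I, measured 11.4, 8.20, 18.0 and 17.2 CPM in depleted replicates 1 to 4, against 0.0536 to 0.247 CPM in controls (log2 fold change 6.36 ± 0.37), and its partner chain Cd8b1 had a log2 fold change of 6.47 ± 0.49. Among those that would have passed on the controls alone, Pirb (3.56 ± 0.46, adjusted p = 0.000119, edgeR) and Klrd1 (2.42 ± 0.33, adjusted p = 0.00014, edgeR) had the smallest p. All 5 pan-leukocyte markers rose, Ptprc (CD45) from 2.94 to 16.4 CPM in controls to 100.1, 75.0, 129.7 and 110.8 CPM (log2 fold change 3.21 ± 0.40, adjusted p = 0.000103, edgeR). Their summed level was 275 to 535 CPM in depleted and 12.3 to 61.4 CPM in control livers.

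By cell type, 6 of 6 T cell markers that passed the filter, 4 of 4 natural killer cell, 4 of 4 B cell and 6 of 6 monocyte and neutrophil markers were called higher in depleted livers. The filter favours these counts too, since Cd3d, Cd8a and Cd8b1 of the T cell list, Eomes of the natural killer cell list and S100a8 and Retnlg of the monocyte and neutrophil list would not have passed it on the controls alone. Of 5 Kupffer cell markers 2 were higher, and of 5 dendritic cell markers 3 were higher and 1 lower. Of 5 sinusoidal endothelial and 4 hepatocyte markers 0 were called. The share over all genes tested was 18.9% higher and 33.9% in either direction. Counts of 0 to 2 in such short lists are therefore no result about them. In the Kupffer cell list, Marco, Timd4 and, without a call, Cd5l had positive estimates. Clec4f (median 2.807 CPM in depleted livers, 119.3 CPM in controls) and Vsig4 (19.11 and 38.97 CPM) had negative estimates, not called. Over the 25 alternatives 1 to 3 Kupffer cell markers were higher and 0 or 1 lower. Of 4 cholangiocyte markers 1 was higher, Sox9, with 13.1 CPM in depleted replicate 3 and 2.05 to 3.61 CPM in the other 3, against 1.65 to 2.81 CPM in controls, and none was called in 9 of 25 alternatives, those without control replicate 1, 2, 3 or 6 or depleted replicate 2 or 3 among them. Summed levels did not overlap between depleted livers and controls for T cell markers (31.3 to 80.0 against 2.14 to 3.42 CPM) or monocyte and neutrophil markers (187.5 to 338.3 against 2.40 to 9.47 CPM). Nor did those of natural killer, B, dendritic and Kupffer cell markers (493.7 to 1191 against 50.5 to 434.8 CPM for the last). Sums of sinusoidal endothelial, hepatocyte and cholangiocyte markers overlapped. Leukocytes are known for high class I and immunoproteasome expression, and their part in the rise of the 10 genes was not tested. In these whole-liver samples, more cells of a type and more RNA per cell cannot be told apart.

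**Figure D4:**
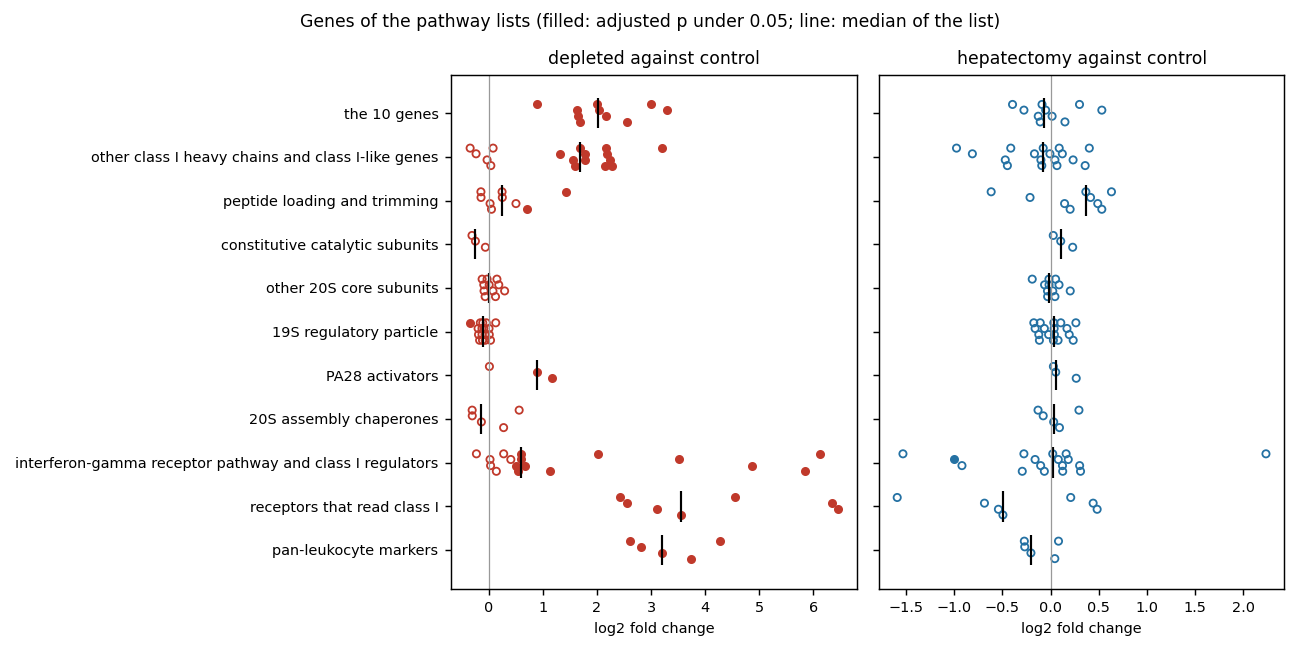
Each circle is a gene placed by its log2 fold change against controls, in depleted livers on the left and hepatectomised livers on the right, where the horizontal axes differ in range (filled, adjusted p under 0.05; vertical line, list median). Filled circles are frequent on the left in the 10 genes (10 of 10), the class I family (12 of 17, or 11 of 16 without H2-M2) and the interferon list (11 of 17, or 9 of 15 without Ifng and Socs1, genes that would not have passed the filter on the controls alone, as H2-M2 would not) and absent on the left from the constitutive catalytic and other 20S subunits, and of the genes plotted on the right 1 is filled, in the interferon list.

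At 72 h after partial hepatectomy, 0 of the 10 genes were called against the same 6 controls by edgeR, with 1 of 10 (H2-D1) at an unadjusted p under 0.05 and 0 called by DESeq2 or limma-voom. Over all genes tested, 8.42% were called. Estimates were positive for 4 genes and negative for 6, with a median log2 fold change of −0.07 against −0.02 over all genes. Ranges overlapped with those of controls in all 10 genes, while 13.7% of genes tested had ranges that did not overlap in either direction.

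The heavy chains had the highest estimates after hepatectomy. H2-D1 measured 517.5, 773.8 and 620.9 CPM in replicates 1 to 3, against 305.9 to 549.4 CPM in controls, a log2 fold change of 0.53 ± 0.20 (adjusted p = 0.124, edgeR). Replicates 2 and 3 were above all controls and replicate 1 was within their range. H2-K1 measured 316.8, 535.0 and 442.2 CPM, with a log2 fold change of 0.30 ± 0.23 (adjusted p = 0.46, edgeR), where replicate 2 alone exceeded the controls. B2m measured 1531, 1535 and 2070 CPM, with a log2 fold change of −0.11 ± 0.15 (adjusted p = 0.706, edgeR). Replicates 1 and 2, both male, were just below the lowest control, at 1566 CPM.

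Tap1 had the lowest estimate after hepatectomy, with 11.02, 17.18 and 11.85 CPM and a log2 fold change of −0.40 ± 0.22 (adjusted p = 0.29, edgeR). Its replicates 1 and 3 were below the lowest control of 12.75 CPM. Tap2 measured 21.81, 34.19 and 35.69 CPM (0.01 ± 0.19, adjusted p = 0.973, edgeR) and Tapbp 102.2, 88.59 and 125.3 CPM (0.15 ± 0.15, adjusted p = 0.6, edgeR). Tap2 in replicates 1 and 3 and Tapbp in replicate 3 lay slightly outside the control ranges. For the transporter, Tap1 per kilobase was 0.229 to 0.349 of Tap2, below the lowest control ratio of 0.352 by a small margin in the nearest library. This ratio was described after its values were seen and was not tested.

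Psmb8 measured 33.74, 26.89 and 39.88 CPM after hepatectomy, with a log2 fold change of −0.05 ± 0.18 (adjusted p = 0.901, edgeR). Psmb9 measured 13.49, 14.34 and 9.702 CPM (−0.28 ± 0.23, adjusted p = 0.491, edgeR) and Psmb10 27.81, 28.46 and 39.96 CPM (−0.09 ± 0.19, adjusted p = 0.824, edgeR). Nlrc5 measured 13.49, 18.78 and 22.97 CPM (−0.13 ± 0.25, adjusted p = 0.807, edgeR). Apart from Psmb9 in replicate 3 and Psmb8 in replicate 2, these values lay within the control ranges. The constitutive subunits Psmb5, Psmb6 and Psmb7 had log2 fold changes of 0.10, 0.23 and 0.03, none called. The ratios of immunoproteasome to constitutive subunits overlapped with controls, with mean log2 differences of −0.28 for Psmb8 over Psmb5, −0.62 for Psmb9 over Psmb6 and −0.19 for Psmb10 over Psmb7 (exact two-sided permutation p of 0.476, 0.214 and 0.476, adjusted 0.476, 0.321 and 0.476, where 0.0238 is the smallest possible).

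Lists of the pathway around the 10 genes and of cell markers were also counted after hepatectomy, where 8.42% of all genes tested were called. Counts of 0 or 1 in lists this short are near that share and no result about them. Of the 17 other class I and class I-like genes 0 were called, the smallest p being that of Mr1 (log2 fold change −0.81 ± 0.27, adjusted p = 0.0821, edgeR), and of 9 loading genes, 3 PA28 genes and 5 pan-leukocyte markers 0 were called. Without control replicate 4, 3 of the 9 loading genes were higher. Psme1 and Psme2 had log2 fold changes of 0.03 ± 0.19 and 0.27 ± 0.20 (adjusted p = 0.948 and 0.438, edgeR). In the interferon list 1 of 17 was called, Rfx5, the DNA-binding subunit of RFX, with a log2 fold change of −1.0 ± 0.20 (adjusted p = 0.0107, edgeR). It did not pass with the replicate numbers as a block (adjusted p = 0.0628, edgeR), a fit in which 632 genes in all were called against 1164. Irf1 measured 31.22, 36.3 and 39.38 CPM (log2 fold change −0.28 ± 0.15, adjusted p = 0.272, edgeR), where all 3 livers were below every control. Ifng was counted 0, 0 and 1 times, Cd8a had a log2 fold change of 0.48 ± 0.45 (adjusted p = 0.555, edgeR) and Ptprc of −0.27 ± 0.45 (adjusted p = 0.766, edgeR). Of 6 monocyte and neutrophil markers 3 were higher, S100a8, S100a9 and Retnlg, genes of neutrophils, with log2 fold changes of 4.51, 4.51 and 4.19. The summed level of that list was 19.3 to 33.0 CPM, against 2.40 to 9.47 CPM in controls, at a median log2 fold change of 2.50. S100a8 and Retnlg would not have passed the filter on the controls alone. Of 4 cholangiocyte markers 2 were higher, the keratins Krt7 and Krt19 (2.14 and 2.10, list median 1.76), a count of 0 with the replicate block or in males alone and of 1 without hepatectomy replicate 3. Of 4 B cell markers 1 was lower, Ms4a1 (−1.51, adjusted p = 0.0408, edgeR, list median −0.75), and in 16 of 25 alternatives no B cell marker was called. The part of these cells in the values of the 10 genes was not tested.

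Depleted and hepatectomised livers were compared directly, since a call in one comparison and none in the other is not a difference. Against hepatectomised livers, all 10 genes were higher in depleted livers by edgeR, where 13.3% of genes tested were higher, and 10 of 10 had ranges that did not overlap, against 18.1% of genes tested with higher values. Log2 differences were largest for Tap1 (3.70 ± 0.27, adjusted p = 1.68e-05) and Psmb9 (3.28 ± 0.28, adjusted p = 3.08e-05) and smallest for B2m (1.00 ± 0.17, adjusted p = 0.00141). The other immunoproteasome genes had 2.61 ± 0.22 (Psmb8) and 1.78 ± 0.23 (Psmb10). Among the remaining genes the differences were 2.02 ± 0.23 for Tap2, 1.77 ± 0.29 for Nlrc5, 1.70 ± 0.27 for H2-K1, 1.63 ± 0.24 for H2-D1 and 1.48 ± 0.18 for Tapbp, with adjusted p between 0.000124 and 0.00121. Of the 17 other class I and class I-like genes 13 were higher and 1 was lower. H2-M2, among the 17, passed the filter only through the depleted livers, where it is high. With 1399 of 13831 genes tested lower, the count of 1 is no result about the list. The lower gene was H2-Q10, with a log2 difference of −0.70 ± 0.21 (adjusted p = 0.0317, edgeR). That call held in 16 of 24 alternatives, with adjusted p from 0.00319 to 0.248, and was lost without depleted replicate 1, 2 or 3, without hepatectomy replicate 1 or 3, with the replicate block (0.0649), with library size alone and in the fit of these groups alone. The comparisons against controls share their 6 control libraries.

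**Figure D5:**
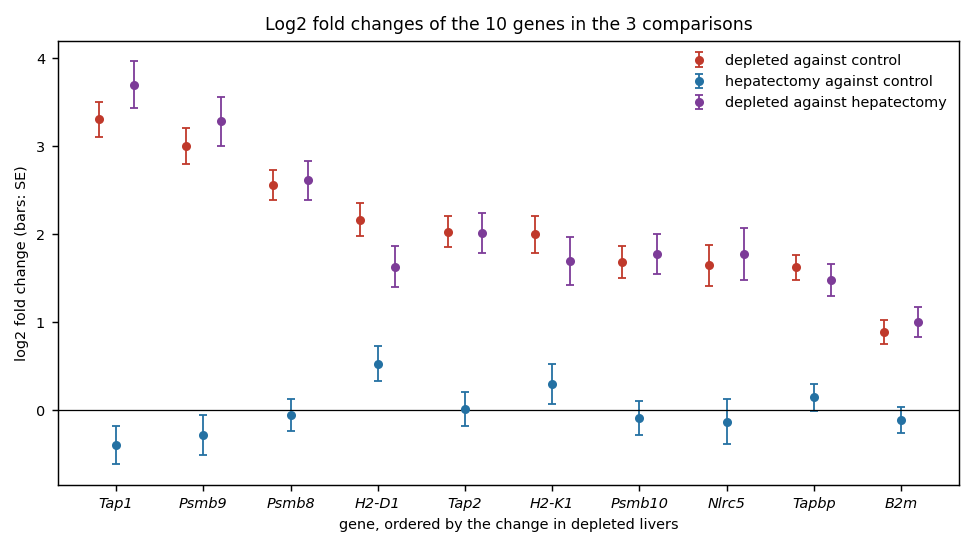
Points are log2 fold changes of the 10 genes in the 3 comparisons and bars are standard errors of the edgeR fit. Depleted livers exceed controls (red) and hepatectomised livers (purple) in all 10 genes, from 0.89 and 1.00 for B2m to 3.30 and 3.70 for Tap1, while hepatectomy against control (blue) lies between −0.40 and 0.53.

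Sex was examined because it was unbalanced between groups. Within the 6 controls, 0 of 10 genes were called between 3 males and 3 females by edgeR, where 0.738% of 13005 genes tested were called, and 1 of 10, Psmb9, had an unadjusted p under 0.05. Psmb9 averaged 13 CPM in males and 18.6 CPM in females, a male minus female log2 difference of −0.52 ± 0.18 (adjusted p = 0.307, edgeR). A term for different effects by sex was called in 0 of 10 genes for depletion, where 0.0217% of genes were called, with a single male among the depleted livers.

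The 5 genes outside the lists whose levels were most like those of the 10 were ranked by Pearson r between log2 CPM and the mean standardised log2 CPM of the 10, over the 13 libraries. They were Apobec3 (r = 0.990), a restriction factor against retroviruses, Pdcd1 (0.985), which encodes PD-1 of activated T cells, Cd2 (0.984), an adhesion receptor of T and natural killer cells, F2rl3 (0.983) and Kctd19 (0.982). These values describe the likeness and carry no p, because the 4 depleted livers are apart from the other 9 in all of them and the libraries share groups. Apobec3 measured 23.8 to 46.8 CPM in depleted livers, 1.77 to 2.81 CPM in controls and 1.88 to 3.39 CPM after hepatectomy. Pdcd1 measured 1.88 to 9.56 CPM in depleted livers and at most 0.0472 CPM in controls, and F2rl3 and Kctd19 stayed under 1 CPM in every library. Outside the depleted livers Pdcd1, F2rl3 and Kctd19 lay below the filter limit of 0.247 CPM in every library. They passed only through the depleted livers, where they are high, so their likeness was given by the filter and is no support.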

How the data were processed

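The authors deposited 1 table of raw read counts per gene for the 13 libraries, with exon coordinates and an exon length in bases. Per the labels' protocols, libraries were made from 500 ng of total RNA (TRIzol, TruSeq stranded mRNA). Per the submitters' processing notes, STAR 2.7.1a, SAMtools 1.15.1 and featureCounts 1.6.4 were used with build mm10. Their settings are not given in the sources used here. Of 22048 gene IDs, 21741 matched a symbol. Groups and sex came from the labels, and Y-linked counts matched the labelled sex in all 13. No batch or date is given, so a batch that followed the groups cannot be told apart from them.

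Counts were tested in R 4.3.3 with edgeR 4.0.16 (filterByExpr, TMM, robust glmQLFit and glmQLFTest), a model of group and sex over all libraries, and Benjamini-Hochberg adjustment over 13831 genes at 0.05. The test was checked on simulated counts. The standard error is the log2 fold change divided by the root of F. Log2 CPM used a prior count of 2. Alternatives were library size or RLE scaling, no filter, no sex term, the compared groups alone, 1 sex, a replicate block, each library left out, heavy chains summed, limma-voom (limma 3.58.1) and DESeq2 1.42.0, and, chosen after seeing the data, control 6 and hepatectomy 2 left out together and TMM without the listed genes. Subunit ratios were tested with scipy 1.17.1.

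The 10 genes and all lists were chosen with earlier results of these data known. The 10 genes, Psmb5, Psmb6, Psmb7, Psme1, Psme2, Ifng, Irf1, Cd8a and Ptprc are always given, and 1 further gene of the rule is not reported here. Other lists name at most the 4 called genes with the smallest p, otherwise the gene with the smallest p. Lilrb4a, Trac and Tf had no matching row. Same-numbered control and hepatectomised libraries, which also share sex, deviated together in 3 of 3 pairs (r of 0.107 to 0.523), control and depleted libraries in 0 of 4 and depleted and hepatectomised libraries in 0 of 3. With sex removed these were 0 of 3 (−0.191 to 0.084), 1 of 4 (−0.098 to 0.416) and 2 of 3 (0.041 to 0.272). The labels do not say that a number marks a shared animal or day, so the model has no block.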

Additional observations from a re-analysis of the deposited data

Results flagged for a closer look

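Libraries far from the rest of their group were sought in the 10 genes and the subunit ratios in groups of 4 to 10, by the gap to the nearest library over the range of the group, both taken on the log2 scale. Of 26 groups examined, 3 exceeded Dixon's critical value, where chance gives 1.3, and on the linear CPM scale 2 did. Nlrc5, the class I transactivator, was 81.15 CPM in depleted replicate 1, against 59.76 to 61.1 CPM in the other 3 (gap 0.928 of the log2 range and 0.937 of the linear range, critical value 0.829). Tap1, the transporter subunit, was 124.4 CPM in depleted replicate 2, against 188.0 to 198.1 CPM in the other 3 (0.888 on the log2 and 0.863 on the linear scale, critical value 0.829). Tap2, its partner, was 22.18 CPM in control replicate 1, against 30.15 to 35.13 CPM in the other 5 (0.668 on the log2 scale, critical value 0.625), but its linear gap of 0.615 did not exceed that value. All 3 genes stayed called in depleted against control livers when these libraries were left out one at a time.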

How the results depend on the processing

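All 10 genes were called in depleted against control livers under the 25 alternatives and against hepatectomised livers under 24, and 0 were called in hepatectomised against control livers under 25. The subunit ratios in depleted livers did not pass within females, at 2.60, 2.99 and 2.06 for Psmb8 over Psmb5, Psmb9 over Psmb6 and Psmb10 over Psmb7 (exact permutation test, adjusted p = 0.2 each), where 3 against 3 cannot pass. Library size alone in place of TMM moved the all-gene median log2 fold change from −0.02 to −0.24 after hepatectomy (626 genes higher and 1566 lower, against 838 and 326) and from −0.03 to 0.08 after depletion (2884 and 1471, against 2614 and 2078), and to 0.27 between the depleted and hepatectomised groups (3102 and 610, against 1837 and 1399). It turned the sign of Psmb5 after depletion (0.047) and, after hepatectomy, of Tap2 (−0.19), Tapbp (−0.067), Psmb5 (−0.11), Psmb7 (−0.18) and Psme1 (−0.18). DESeq2 called 1939 genes after hepatectomy, against 1164. None of the genes that changed sign was called in either analysis, and the cause was not tested.

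Other sign changes after hepatectomy were Tap2 without the sex term (−0.012), in males alone Tap2 (−0.011) and Psmb9 (0.092), and without control 6 and hepatectomy 2 together B2m (0.0092), Tap2 (−0.080), Psmb8 (0.044) and Psmb10 (0.021). Leaving out 1 library at a time gave ranges across 0 for Psmb5 after depletion (−0.19 to 0.090) and, after hepatectomy, for Nlrc5 (−0.30 to 0.034), Psmb5 (−0.023 to 0.19), Psmb7 (−0.016 to 0.090), Psmb8 (−0.16 to 0.059), Psmb9 (−0.41 to 0.032), Psme1 (−0.021 to 0.14), Ptprc (−0.68 to 0.055) and Tap2 (−0.12 to 0.18). Rfx5 lost its call in males alone (adjusted p = 0.142, edgeR) and without hepatectomy replicate 3 (0.0502), and Erap1 in females alone (0.169). Mr1 passed as lower after hepatectomy with library size alone (0.0288) and by DESeq2 (0.0354).

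With the replicate block, 10, 0 and 10 of the 10 genes were called in depleted against control, hepatectomised against control and depleted against hepatectomised livers, and 3887, 632 and 3170 of all genes, against 4692, 1164 and 3236 without it. After hepatectomy the block turned the sign of Psmb8 (0.026), Psmb10 (0.045) and Ifng (0.087), the last with at most 1 count per hepatectomised library. The block ended the calls of Psmd11 after depletion and of Rfx5 after hepatectomy.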
